A study of Mus musculus with 6 samples.

Results

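Collagen genes encode the chains of a family of triple-helical proteins, and 44 such genes were found among 54087 gene rows. The members were all rows whose symbol is Col, a number, the letter a and a number, such as Col1a1 and Col6a1. RNA had been sequenced from 3 Dnmt3A KO/KO and 3 Dnmt3A WT/WT samples, all from male C57BL/6 mice aged 10 days. Both genotypes were sampled as sorted Id4-GFP germ cells, taken from the bright and medium gates together, which the labels equate roughly with SSC, the usual short form of spermatogonial stem cells. Dnmt3a encodes a de novo DNA methyltransferase. The labels do not say how the KO allele was made, nor which animals each sample holds. The p-values therefore rest on a spread among samples that may be technical.

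Each collagen molecule winds 3 chains into a helix inside the endoplasmic reticulum and is then secreted or held in the membrane. Fibrillar collagens build the cables of connective tissue, collagen IV builds the sheets of basement membranes, and collagen VI builds beaded filaments. The FACIT collagens sit on fibrils or at tissue borders, transmembrane collagens stay on the cell surface, and the multiplexins, Col15a1 and Col18a1, belong to basement membrane zones. In the testis, collagens are known mainly from the basement membrane and the peritubular layer around the seminiferous tubules, against which spermatogonia rest.

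Gene rows summed to between 43951664 and 61749155 counts in KO/KO samples and between 42681201 and 48423509 in WT/WT samples. Dnmt3a stood at 90.2, 104 and 99.5 CPM (counts scaled by library total and TMM factor) in KO/KO and at 215, 193 and 188 CPM in WT/WT (log2 fold change -1.02, SE 0.09, edgeR adjusted p = 0.000222), so the targeted gene was lower, though still present, in every KO/KO sample. The 14 germ cell markers summed to between 2692 and 2977 CPM in KO/KO and between 2694 and 2780 CPM in WT/WT. However, 3 of them rose and 4 fell (50% of the 14 tested, against 14.8% of all genes tested). Id4, the gene of the sorting reporter, had 86.7, 176 and 159 CPM in KO/KO and 36.9, 38.0 and 38.4 CPM in WT/WT, and Gfra1 and Ret, which encode the GDNF receptor of undifferentiated spermatogonia, rose as well (log2 fold changes 1.89, 1.01 and 0.80). Zbtb16, Uchl1, Sall4 and Dppa3 fell (log2 fold changes -0.56, -0.88, -0.36 and -3.46), and Ddx4 and Dazl did not pass. The germ cell markers thus differed between the genotypes, and their part in the collagen levels was not tested. Markers of Sertoli cells, the nurse cells of the tubule, were present too: 15 of 15 passed the filter on low counts, and their summed level was 652, 669 and 960 CPM in KO/KO and 828, 714 and 578 CPM in WT/WT. Clu, the Sertoli marker with the highest CPM, overlapped between genotypes, at 194, 229 and 300.1 CPM in KO/KO and 309, 273 and 186 CPM in WT/WT. The 1 Sertoli marker called was Rhox5 (log2 fold change 4.84), 6.67% of the 15 tested against 14.8% of all genes. Of the 10 interstitial stromal markers, Lum had at most 0.156 CPM and Dcn at most 2.29 CPM in any sample, and the summed level of the list was between 25.1 and 30.2 CPM in KO/KO and between 25.7 and 35.1 CPM in WT/WT. The 8 peritubular myoid markers summed to between 48.9 and 56.9 CPM in KO/KO and between 35.4 and 50.8 CPM in WT/WT. Much of that sum was Smtn, at 31.7, 39.8 and 33.2 CPM in KO/KO and 19.0, 18.6 and 18.8 CPM in WT/WT. Smtn rose (log2 fold change 0.89) and Synpo2 fell (-1.08), 28.6% of the 7 tested against 14.8% of all genes. The 5 others tested did not pass, with log2 fold changes from -1.37 (Des) to 0.37 (Myl9). Leydig markers summed to at most 7.24 CPM in KO/KO and 16 CPM in WT/WT, macrophage and leukocyte markers to 5.02 and 2.33 CPM, and pericyte markers to 4.62 and 5.46 CPM. Cd68 was the 1 called gene of these lists, at 3.93, 3.51 and 4.78 CPM in KO/KO and 1.21, 1.45 and 1.76 CPM in WT/WT. It rose (log2 fold change 1.47, edgeR adjusted p = 0.00402). Ptprc, the other macrophage and leukocyte marker tested, did not pass, and 5 had too few counts to be tested. In bulk samples such as these, fewer cells of a type and less RNA per cell cannot be told apart.

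Collagen transcripts made up a small part of these libraries, and a few chains carried most of it. The 44 genes summed to 638, 754 and 786 CPM in KO/KO and to 637, 583 and 477 CPM in WT/WT, and the genotypes did not overlap, although KO/KO replicate 1 and WT/WT replicate 1 lay close together. The 4 genes with the highest mean, Col18a1, Col5a1, Col22a1 and Col4a1, held 62.9% of the summed collagen CPM in KO/KO and 52.0% in WT/WT. Per kilobase of exon, the highest levels were those of Col18a1 (22.0 CPM per kb in KO/KO and 16.9 in WT/WT) and Col5a1 (18.3 and 11.6 CPM per kb). Col13a1 was next in KO/KO (12.6 CPM per kb, against 5.87 in WT/WT), whereas Col1a1 was next in WT/WT, with 3.70 CPM per kb in KO/KO and 10.1 in WT/WT. FACIT collagens summed to 90.4, 125 and 103 CPM in KO/KO, against 58.6, 50.2 and 47.8 CPM in WT/WT. Fibrillar collagens summed to 211, 233 and 233 CPM in KO/KO and 214, 213 and 176 CPM in WT/WT, so this class overlapped between genotypes.

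**Figure D1:**
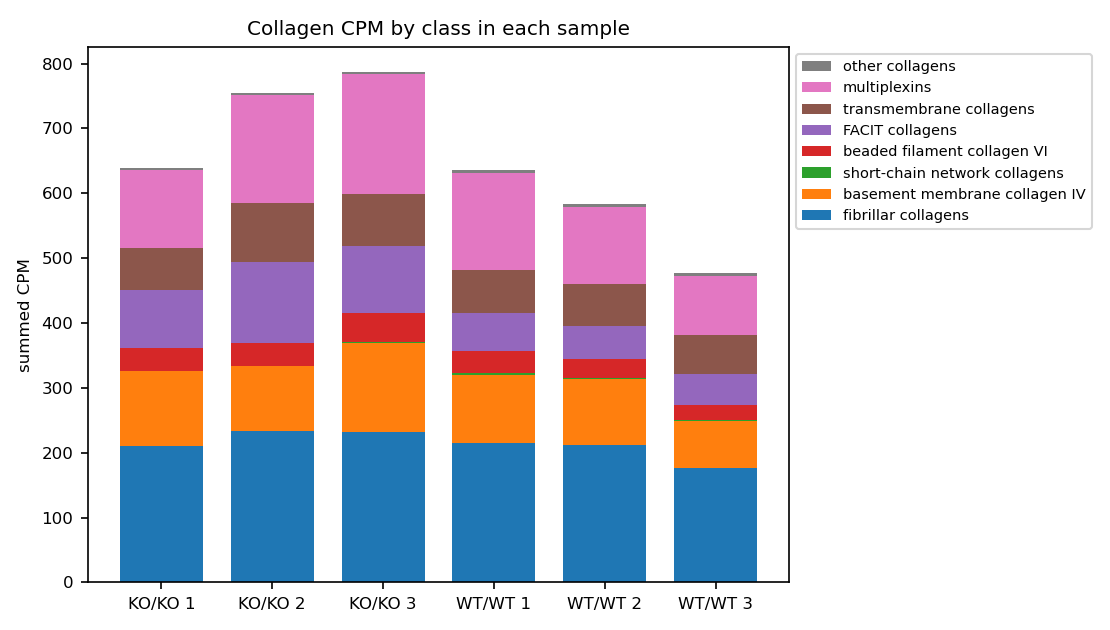
Summed CPM of the collagen genes of each class (stacked colours, bar height in CPM) in the 3 KO/KO and 3 WT/WT samples. Totals run from 638 to 786 CPM in KO/KO and from 477 to 637 CPM in WT/WT, and the FACIT segment is taller in every KO/KO bar than in any WT/WT bar.

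More collagen genes rose than fell in KO/KO. Of the 44 genes, 40 passed the filter on low counts and were tested together with all other genes by the quasi-likelihood test of edgeR, at a Benjamini-Hochberg threshold of 0.05 and with log2 fold changes as KO/KO over WT/WT. Of these, 9 rose, against 8.33% of all 21314 genes tested, and 4 fell, against 6.42% of all genes. Together the 13 make up 32.5% of the collagens tested, against 14.8% of all genes tested. The median log2 fold change was 0.13 over the tested collagens and 0.00 over all tested genes. Of the 40, 10 lay above and 5 below in every KO/KO sample relative to every WT/WT sample; such separation was as common among all genes, at 35.8% (18.2% above and 17.5% below). Col1a1, Col5a1, Col5a2, Col11a1, Col11a2, Col6a5, Col22a1, Col13a1 and Col25a1 passed the threshold in each of 14 alternative fits, and Col4a1, Col6a1, Col7a1 and Col28a1 did not pass in all of them. Fits without 1 WT/WT sample also called fewer genes in all, between 1374 and 1735, against 3144 with all 6 samples. Fits without 1 KO/KO sample called between 2659 and 3365 genes. The fit without KO/KO replicate 1 called the most, 3365, and still lost Col4a1, Col6a1, Col7a1 and Col28a1.

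**Figure D2:**
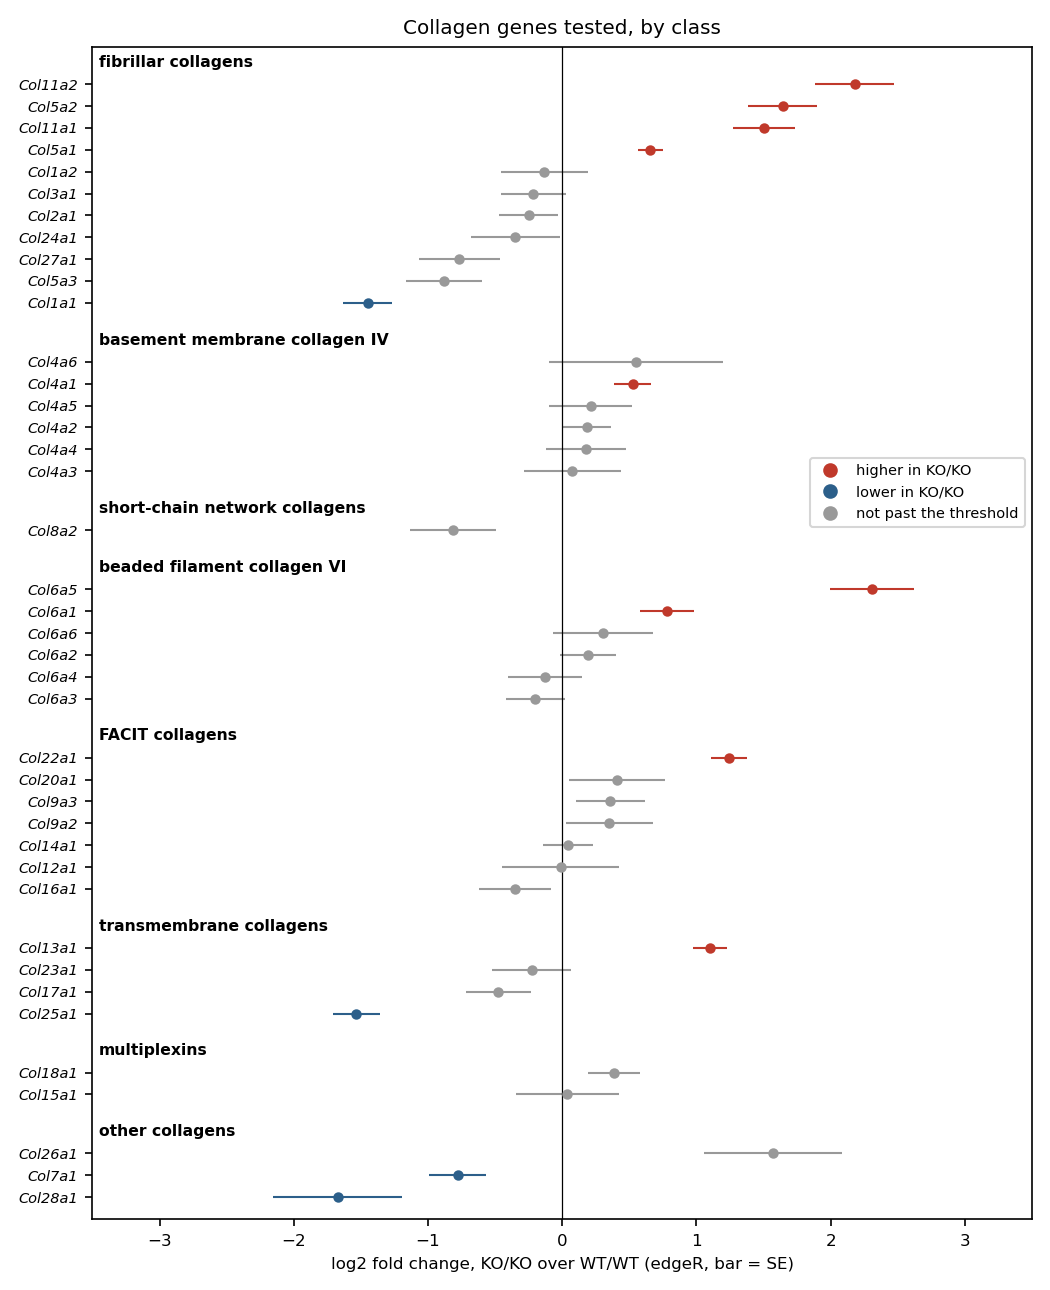
Log2 fold change (KO/KO over WT/WT, x axis) with its standard error (bar) for the 40 collagen genes tested, grouped by class. Red points passed the threshold as higher in KO/KO, blue points as lower, and grey points did not pass; values run from -1.67 (Col28a1) to 2.31 (Col6a5).

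Within the fibrillar class Col5a1, Col5a2, Col11a1 and Col11a2 rose and Col1a1 fell. All 11 fibrillar genes were tested, and 4 rose and 1 fell (45.5%, against 14.8% of all genes tested). The class had a median log2 fold change of -0.21. Collagens V and XI are minor fibrillar types that start fibrils and limit their width, and collagen XI is best known from cartilage. Col5a1, mutated in classic Ehlers-Danlos syndrome in humans, had 137, 165 and 165 CPM in KO/KO and 103, 99.4 and 94.3 CPM in WT/WT. It was the most abundant fibrillar gene in both genotypes, its groups did not overlap, and it rose by 0.66 on the log2 scale (SE 0.09, edgeR adjusted p = 0.00190). Its partner chain gene Col5a2 had 5.05, 9.65 and 6.87 CPM in KO/KO, against 2.28, 2.58 and 2.03 CPM in WT/WT. Every KO/KO sample lay above the WT/WT range, with KO/KO replicate 2 highest, and the log2 fold change was 1.64 (SE 0.26, edgeR adjusted p = 0.00312). Col11a1 had 6.46, 8.53 and 5.35 CPM in KO/KO and 2.47, 2.04 and 2.67 CPM in WT/WT. The groups were apart by a factor larger than the spread within either, and the log2 fold change was 1.5 (SE 0.23, edgeR adjusted p = 0.00278). Col11a2 had 6.08, 10.7 and 8.34 CPM in KO/KO, against 2.60, 1.45 and 1.5 CPM in WT/WT, with a log2 fold change of 2.18 (SE 0.29, edgeR adjusted p = 0.00164). This was the steepest rise of a fibrillar gene, and its lowest KO/KO sample stood above its highest WT/WT sample. The third collagen V chain, Col5a3, lay on the other side, at 1.72, 3.24 and 2.12 CPM in KO/KO and 5.11, 4.71 and 3.21 CPM in WT/WT. KO/KO replicate 2 and WT/WT replicate 3 almost met, and the gene missed the threshold (log2 fold change -0.88, edgeR adjusted p = 0.0679), although it passed with DESeq2 (adjusted p = 0.0237) and, in edgeR, without KO/KO replicate 2 (adjusted p = 0.0194).

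The upstream sequence is shown for the 3 collagen V and XI genes that rose and have an entry in the RefSeq promoter table (GRCm38.p6), because they moved together. Each line gives the 250 bases before the RefSeq gene start, 5′ to 3′ on the gene's strand, with every CG dinucleotide, the site at which DNA methyltransferases act, in capitals. The windows are chr2:27886175-27886424 (+ strand), chr3:114030290-114030539 (+ strand) and chr17:34038888-34039137 (+ strand), and none of them holds an exon base of GENCODE M21.
Col5a1: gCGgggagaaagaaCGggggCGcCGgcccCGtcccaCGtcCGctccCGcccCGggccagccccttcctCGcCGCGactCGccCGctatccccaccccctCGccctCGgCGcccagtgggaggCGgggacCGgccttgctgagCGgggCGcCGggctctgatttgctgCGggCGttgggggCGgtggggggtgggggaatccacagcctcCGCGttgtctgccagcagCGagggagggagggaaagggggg
Col11a1: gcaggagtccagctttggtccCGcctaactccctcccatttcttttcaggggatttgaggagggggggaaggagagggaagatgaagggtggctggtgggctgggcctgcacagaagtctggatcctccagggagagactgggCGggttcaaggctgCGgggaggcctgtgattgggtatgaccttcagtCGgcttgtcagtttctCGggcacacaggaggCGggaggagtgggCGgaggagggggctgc
Col11a2: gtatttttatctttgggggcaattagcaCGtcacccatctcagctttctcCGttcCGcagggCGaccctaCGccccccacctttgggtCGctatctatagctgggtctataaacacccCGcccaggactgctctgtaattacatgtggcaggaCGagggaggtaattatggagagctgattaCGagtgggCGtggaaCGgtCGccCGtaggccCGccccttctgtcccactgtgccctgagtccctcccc

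The 3 windows differ in CG content. Col5a1 has 28 CG, a number reached by 7.61% of all 32841 promoters of this length, Col11a2 has 14 (29.4%) and Col11a1 has 7 (46.3%), and the median over all promoters is 6. Each of the 3 holds 2 copies of GGGCGG, the GC box of Sp1-type factors, counted on both strands and overlapping the CG count, and 32.7% of all promoters hold at least 1. TATAAA, searched on both strands, is present once in the Col11a2 window and in 12.4% of all promoters. Across the 35 collagen genes with an entry (38 windows), the CG count had a median of 14 and a range of 3 to 31 in the 7 windows of genes that rose. It had a median of 7 and a range of 0 to 18 in the 3 windows of genes that fell, and a median of 10 and a range of 0 to 26 in the 23 windows of genes that did not pass.

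Col1a1, the principal chain of the collagen of bone, tendon and skin, fell. It had 30.9, 19.0 and 23.0 CPM in KO/KO and 72.7, 71.8 and 54.4 CPM in WT/WT. The genotypes were far apart, and the log2 fold change was -1.45 (SE 0.18, edgeR adjusted p = 0.00117). The Col1a2 chain, which joins 2 Col1a1 chains in type I collagen, had 7.42, 4.13 and 7.41 CPM in KO/KO and 6.71, 9.97 and 4.09 CPM in WT/WT, with overlapping genotypes (log2 fold change -0.13, edgeR adjusted p = 0.828). Col3a1, a chain of stretchable tissues, had between 4.70 and 9.16 CPM in KO/KO and between 6.64 and 9.37 CPM in WT/WT and did not pass either (log2 fold change -0.21, edgeR adjusted p = 0.609). Of the interstitial stromal markers, Pdgfra, a receptor of mesenchymal cells, was at 12.7, 12.6 and 13.5 CPM in KO/KO and 21.9, 21 and 16 CPM in WT/WT and fell (log2 fold change -0.60, edgeR adjusted p = 0.0210). It was the 1 called gene of the 8 stromal markers tested (12.5%, against 14.8% of all genes tested). Lum and Ly6a were at or near 0 in all 6 samples, and the part of stromal cells in the level of Col1a1 was not tested. The remaining fibrillar genes did not pass. Col2a1, the cartilage collagen, had a log2 fold change of -0.25, Col24a1 one of -0.35 and Col27a1 one of -0.77 (edgeR adjusted p = 0.119), all at means under 5 CPM in both genotypes.

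**Figure D3:**
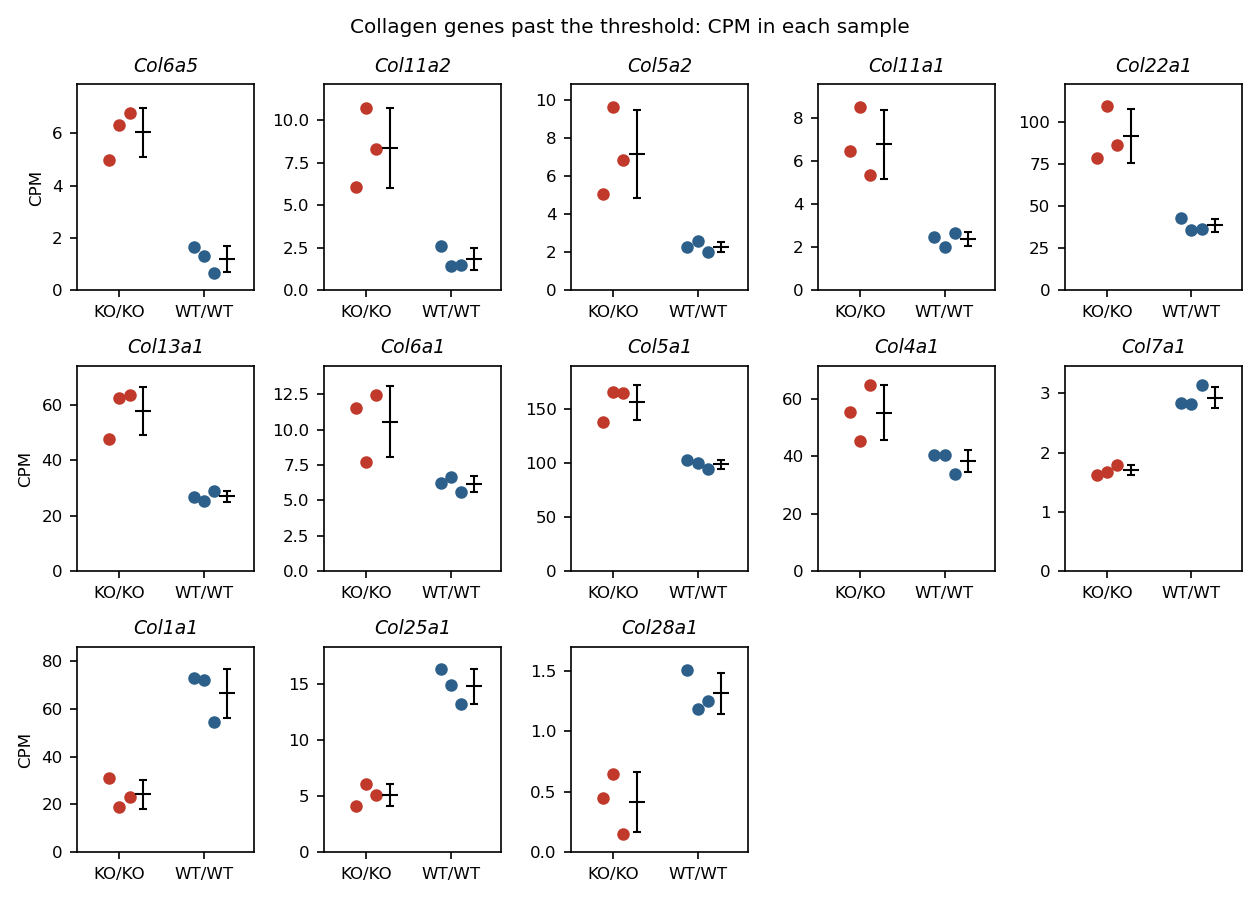
CPM of the 13 collagen genes that passed the threshold, in each KO/KO (red) and WT/WT (blue) sample; black marks are the mean and SD of 3 samples, each panel has its own axis from 0, and panels are ordered by log2 fold change. No panel has overlapping genotypes, and the scale runs from under 2 CPM for Col28a1 to 165 CPM for Col5a1.

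Of the 6 basement membrane collagen IV genes, all tested, Col4a1 rose and none fell. That is 16.7%, near the 14.8% of all genes tested, and the median log2 fold change was 0.20. Col4a1 and Col4a2, whose products form the collagen IV of most basement membranes, lie head to head on chromosome 8 (GRCm38), Col4a1 from 11198423 to 11312826 on the minus strand and Col4a2 from 11312805 to 11449287 on the plus strand. Col4a1 had 55.4, 45.5 and 64.7 CPM in KO/KO and 40.6, 40.5 and 33.9 CPM in WT/WT. The groups did not overlap, but the gap was small (log2 fold change 0.53, SE 0.14, edgeR adjusted p = 0.0306), and the call was lost without any 1 sample other than KO/KO replicate 2 (adjusted p between 0.0520 and 0.126, log2 fold changes between 0.41 and 0.57). Col4a2 had 42.0, 33.0 and 51.8 CPM in KO/KO and 43.2, 38.6 and 30.0 CPM in WT/WT, which overlap (log2 fold change 0.18, edgeR adjusted p = 0.541). Col4a3, Col4a4 and Col4a5, known from the basement membrane of the kidney filter and affected in human Alport syndrome, and Col4a6 had log2 fold changes between 0.08 and 0.55, with standard errors between 0.30 and 0.65. Col4a4 had 9.61, 9.69 and 11.6 CPM in KO/KO and 11.8, 11 and 4.53 CPM in WT/WT, so that WT/WT replicate 3 set the spread. The endothelial markers, genes of vessel cells that also make collagen IV, summed to 126, 166 and 156 CPM in KO/KO and to 42.9, 44.6 and 38.0 CPM in WT/WT. Of 8 tested, 5 rose and none fell (62.5%, against 14.8% of all genes tested). Among them was Flt1, at 42.7, 41.7 and 54.0 CPM in KO/KO and 15.3, 13.9 and 13.9 CPM in WT/WT. Pecam1, at most 5.23 CPM, Tek and Cldn5 did not pass (log2 fold changes 0.16, -0.18 and 1.84). Emcn and Esam had under 0.5 CPM in every sample, and the part of such cells in the level of Col4a1 was not tested.

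Collagen VI chains assemble into beaded filaments that link cells to the surrounding matrix. Of 6 genes tested 2 rose and none fell (33.3%, against 14.8% of all genes tested), with a median log2 fold change of 0.25. Col6a5, one of the chains that can take the place of the Col6a3 product, had 4.98, 6.32 and 6.78 CPM in KO/KO, against 1.64, 1.33 and 0.662 CPM in WT/WT. It had the largest rise of any collagen tested (log2 fold change 2.31, SE 0.31, edgeR adjusted p = 0.00165), and the lowest KO/KO sample stood well above the highest WT/WT sample. Its neighbours on chromosome 9, Col6a6 and Col6a4, lie on the same strand on either side. Col6a4 had 4.09, 7.38 and 9.24 CPM in KO/KO and 8.74, 7.87 and 6.08 CPM in WT/WT, and Col6a6 had 2.21, 1.38 and 3.35 CPM in KO/KO and 2.51, 1.20 and 1.94 CPM in WT/WT. Both overlapped between genotypes and neither passed (log2 fold changes -0.13 and 0.30). Col6a1, a chain of every collagen VI molecule, had 11.5, 7.72 and 12.4 CPM in KO/KO and 6.21, 6.69 and 5.56 CPM in WT/WT (log2 fold change 0.78, SE 0.20, edgeR adjusted p = 0.0287). This call was lost without any 1 sample other than KO/KO replicate 2 (adjusted p between 0.0612 and 0.111, log2 fold changes between 0.66 and 0.84). Col6a2, which pairs with Col6a1, and Col6a3 did not pass (log2 fold changes 0.19 and -0.20).

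Because Col6a5 rose the most, its upstream window is given in the same way (chr9:105960644-105960893, minus strand, GRCm38.p6, read 5′ to 3′ on the gene's strand, CG in capitals). It has 8 CG, a number reached by 43.0% of all promoters, and 1 GGGCGG.
Col6a5: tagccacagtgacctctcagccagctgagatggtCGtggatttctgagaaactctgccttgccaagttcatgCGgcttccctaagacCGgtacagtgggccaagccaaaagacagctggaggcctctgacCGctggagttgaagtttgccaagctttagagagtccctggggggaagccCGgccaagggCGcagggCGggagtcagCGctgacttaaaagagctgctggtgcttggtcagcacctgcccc

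Of 9 FACIT genes, 7 were tested, Col22a1 rose and none fell. That is 14.3%, near the 14.8% of all genes tested, and the median log2 fold change was 0.35. Col22a1, a collagen of tissue junctions such as that between muscle and tendon, had 78.7, 109.5 and 86.3 CPM in KO/KO and 43.3, 36.1 and 36.5 CPM in WT/WT. Its KO/KO samples all lay well above the WT/WT samples, and the log2 fold change of 1.24 (SE 0.13) had the smallest adjusted p of any collagen (edgeR adjusted p = 0.000620). Col22a1 alone held most of the class sum in both genotypes, since the other tested members averaged between 0.771 and 3.33 CPM in KO/KO and between 0.770 and 3.46 CPM in WT/WT. Col9a2, Col9a3, Col12a1, Col14a1, Col16a1 and Col20a1 had log2 fold changes between -0.35 and 0.41 and did not pass. Col14a1 was the most even of them, at 3.31, 3.18 and 3.5 CPM in KO/KO and 3.15, 3.16 and 3.41 CPM in WT/WT. Col9a1 and Col19a1 had at most 4 and 8 counts in any sample and were not tested.

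The transmembrane collagens moved in both directions. Of 4 genes, all tested, Col13a1 rose and Col25a1 fell (50%, against 14.8% of all genes tested), and Col17a1 and Col23a1 did not pass. Col13a1, a surface collagen needed at the neuromuscular junction, had 47.9, 62.5 and 63.5 CPM in KO/KO and 26.8, 25.3 and 28.9 CPM in WT/WT (log2 fold change 1.10, SE 0.13, edgeR adjusted p = 0.000788). Col25a1, first described in amyloid plaques and needed by motor axons, had 4.16, 6.10 and 5.13 CPM in KO/KO and 16.4, 14.9 and 13.3 CPM in WT/WT. Every KO/KO sample lay above the WT/WT range for Col13a1 and below it for Col25a1, which had a log2 fold change of -1.53 (SE 0.18, edgeR adjusted p = 0.000825). Col17a1, the hemidesmosome collagen of epithelia, had 11.6, 22.0 and 11.4 CPM in KO/KO and 22.4, 22.5 and 17.6 CPM in WT/WT. KO/KO replicate 2 lay within the WT/WT range, apart from the other KO/KO samples, and the gene did not pass (log2 fold change -0.48, edgeR adjusted p = 0.227). Without KO/KO replicate 2 it passed, with a log2 fold change of -0.86 (adjusted p = 0.00497). Col23a1 averaged 1.06 CPM in KO/KO and 1.24 CPM in WT/WT.

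The upstream windows of Col13a1 (chr10:61979109-61979358, minus strand) and Col25a1 (chr3:130180595-130180844, plus strand) are set side by side because these transmembrane genes moved in opposite directions. The Col25a1 window precedes the start of its RefSeq entry but lies inside the GENCODE gene, which begins at position 130131501, so it is not upstream of the whole gene. Col13a1 has 24 CG, a number reached by 12% of all promoters, no GGGCGG and 1 TATAAA, and Col25a1 has 18 CG (21.7%), 2 GGGCGG and no TATAAA.
Col13a1: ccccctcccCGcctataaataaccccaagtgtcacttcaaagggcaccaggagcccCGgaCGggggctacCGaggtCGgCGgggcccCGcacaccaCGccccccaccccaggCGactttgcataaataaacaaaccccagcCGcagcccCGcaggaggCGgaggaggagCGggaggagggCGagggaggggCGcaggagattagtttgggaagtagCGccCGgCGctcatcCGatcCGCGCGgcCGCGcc
Col25a1: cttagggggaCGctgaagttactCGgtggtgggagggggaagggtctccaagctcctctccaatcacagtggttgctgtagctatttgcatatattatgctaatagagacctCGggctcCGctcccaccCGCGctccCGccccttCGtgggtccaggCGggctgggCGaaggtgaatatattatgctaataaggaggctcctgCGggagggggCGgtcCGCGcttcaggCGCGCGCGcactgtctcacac

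Neither multiplexin passed the test. Col18a1, the precursor of endostatin, had the highest level per kilobase of exon of all collagens in both genotypes. It had 117, 164 and 182 CPM in KO/KO and 148, 117 and 89.9 CPM in WT/WT. KO/KO replicate 1 lay within the WT/WT range, and the log2 fold change was 0.38 (SE 0.19, edgeR adjusted p = 0.217), although the fit with no filter on low counts called it (adjusted p = 0.00319). Col15a1 had 2.30, 1.54 and 1.63 CPM in KO/KO and 2.15, 2.35 and 0.809 CPM in WT/WT, with overlapping genotypes (log2 fold change 0.04).

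Among the low collagens outside these classes, Col7a1 and Col28a1 fell. They were 2 of the 3 genes tested in the class of other collagens (66.7%, against 14.8% of all genes tested). Col7a1, which forms the anchoring fibrils under epithelia, had 1.63, 1.68 and 1.80 CPM in KO/KO and 2.83, 2.82 and 3.14 CPM in WT/WT. The samples of each genotype lay close together (log2 fold change -0.78, SE 0.21, edgeR adjusted p = 0.0381), and without any 1 sample the log2 fold change stayed between -0.81 and -0.73 while the adjusted p lay between 0.0543 and 0.129. Col28a1, a collagen of peripheral nerves, had 20, 32 and 10 counts in KO/KO and 66, 57 and 51 counts in WT/WT (log2 fold change -1.67, SE 0.48, edgeR adjusted p = 0.0438), and its call was lost without any 1 sample other than KO/KO replicate 2 (adjusted p between 0.0560 and 0.134, log2 fold changes between -1.74 and -1.24). Without any 1 sample other than KO/KO replicate 2, 2 collagens fell, Col1a1 and Col25a1, against 4 with all samples. Col26a1 had 29, 45 and 62 counts in KO/KO and 18, 16 and 4 counts in WT/WT, did not overlap between genotypes and missed the threshold (log2 fold change 1.57, SE 0.51, edgeR adjusted p = 0.0707), but passed with DESeq2 (adjusted p = 0.0413). Col8a2, a chain of the corneal Descemet membrane, lay lower in every KO/KO sample, at 0.737, 1.40 and 1.35 CPM in KO/KO and 2.56, 1.77 and 1.84 CPM in WT/WT, without passing (log2 fold change -0.81, edgeR adjusted p = 0.121). Its partner Col8a1 had 0 counts in each KO/KO sample, an outcome that allows up to 0.0670 CPM per sample, and 25, 2 and 6 counts in WT/WT, and with Col10a1 (at most 15 counts) it was not tested.

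Partner chains of 1 molecule were also compared by their ratio. The level per kilobase of exon was compared within 8 partner pairs by an exact two-sided permutation test of the log2 ratio over samples, which with 3 samples per genotype cannot go below p = 0.1, so no pair could pass (smallest adjusted p over the 8 pairs 0.267). The ratio of Col1a1 to Col1a2 was 7.89, 8.71 and 5.88 in KO/KO and 20.5, 13.6 and 25.2 in WT/WT, which do not overlap (exact permutation p = 0.1). The Col1a1 product outnumbers the Col1a2 product by 2 to 1 in the usual collagen I molecule, and all 6 RNA ratios lay above that. The size of these ratios depends on the exon lengths used, 6.56 kb for Col1a1 and 12.43 kb for Col1a2. Those lengths cover every annotated exon, whether used in these cells or not, and RNA ratios are not protein ratios. The ratio of Col5a1 to Col5a2 was 30.7, 19.4 and 27.1 in KO/KO and 50.8, 43.6 and 52.3 in WT/WT, and that of Col4a1 to Col4a2 was 1.17, 1.22 and 1.11 in KO/KO and 0.834, 0.931 and 1.00 in WT/WT. The genotypes were separated for these 3 of the 8 pairs. Among all single genes 35.8% were separated, but no such share was computed for ratios. Each of these pairs holds a chain gene called on its own, and no difference in ratio was shown. Ratios of the 5 other pairs overlapped, among them Col11a1 to Col11a2, at 0.573, 0.428 and 0.346 in KO/KO and 0.511, 0.755 and 0.964 in WT/WT.

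**Figure D4:**
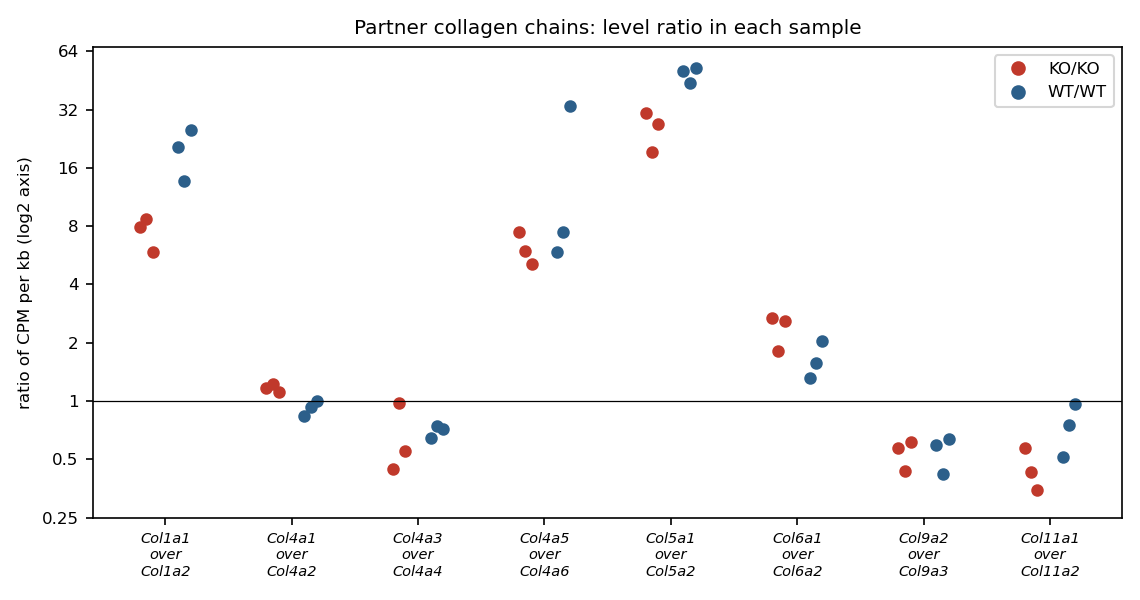
Ratio of CPM per kb of exon between partner collagen chains in each KO/KO (red) and WT/WT (blue) sample, on a log2 axis with a line at 1. KO/KO and WT/WT points separate for Col1a1 over Col1a2, Col4a1 over Col4a2 and Col5a1 over Col5a2, and overlap for the other 5 pairs; the high WT/WT point of Col4a5 over Col4a6 rests on 2 counts of Col4a6.

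Samples of 1 genotype also differed in their collagens. WT/WT replicate 3 was the lowest WT/WT sample for 30 of the 40 tested collagens (75%), against 37.7% of all tested genes, and the lowest of all 6 samples for 19 (47.5%, against 19.3%). The same sample had the lowest sums of Sertoli, myoid and endothelial markers, at 578, 35.4 and 38.0 CPM, but the highest sum of Leydig markers, at 16 CPM, and its stromal sum of 25.7 CPM was above that of KO/KO replicate 2. Among the 13 called collagens, KO/KO replicate 1 was the KO/KO sample nearest to the WT/WT mean for 7 (53.8%, against 61.1% of all called genes), including Col5a1, Col13a1 and Col22a1.

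The genes that make and handle collagen mostly did not pass the test. Of 19 collagen-modifying enzymes and chaperones tested, 1 rose and 2 fell, 15.8% in all against 14.8% of all genes, and the median log2 fold change was 0.03. Serpinh1, the collagen chaperone HSP47, had 35.3, 29.6 and 49.0 CPM in KO/KO and 24.4, 23.5 and 23.2 CPM in WT/WT and rose (log2 fold change 0.68, SE 0.17, edgeR adjusted p = 0.0248). P3h1 and Crtap, whose products form 1 complex that hydroxylates prolines of collagen I, both fell, with log2 fold changes of -0.56 (SE 0.12, edgeR adjusted p = 0.0147) and -0.84 (SE 0.23, edgeR adjusted p = 0.0354). The third protein of that complex, encoded by Ppib, did not pass, at 117, 97.8 and 117 CPM in KO/KO and 104, 116 and 124 CPM in WT/WT. P4hb, a subunit of the prolyl 4-hydroxylase needed by every collagen, had 349.6, 302 and 362 CPM in KO/KO and 343, 362 and 401 CPM in WT/WT, and did not pass. Without any 1 WT/WT sample, Serpinh1 and Crtap kept similar log2 fold changes, between 0.66 and 0.70 and between -0.87 and -0.81, but did not pass (adjusted p between 0.0733 and 0.113). The same held for P3h1 without WT/WT replicate 1 or 2 (-0.54 with an adjusted p of 0.0632, and -0.53 with one of 0.0876) and for Crtap without KO/KO replicate 3 (-0.87, adjusted p 0.0578).

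Of 13 genes of propeptide processing and cross-linking tested, 2 fell and none rose (15.4%), and of 11 collagen receptors 1 fell and none rose (9.09%). Over all genes tested, 14.8% were called, so neither list stood out by its number of calls. Adamts14, a protease that removes the amino-terminal propeptide of procollagens, had 2.61, 1.34 and 0.837 CPM in KO/KO and 7.19, 6.69 and 8.70 CPM in WT/WT (log2 fold change -2.25, SE 0.36, edgeR adjusted p = 0.00355). Loxl2, a lysyl oxidase that cross-links collagen, had 2.44, 1.16 and 1.63 CPM in KO/KO and 8.17, 5.98 and 6.67 CPM in WT/WT (log2 fold change -2.00, SE 0.28, edgeR adjusted p = 0.00189). Mrc2, an endocytic receptor that takes up collagen fragments, had 6.05, 3.12 and 3.38 CPM in KO/KO and 9.95, 9.62 and 16.8 CPM in WT/WT (log2 fold change -1.54, SE 0.30, edgeR adjusted p = 0.00912). Pxdn, a peroxidase gene whose product cross-links collagen IV, had 64, 56.3 and 55.1 CPM in KO/KO and 69.1, 63.2 and 76.0 CPM in WT/WT and did not pass (edgeR adjusted p = 0.133). Adamts14, Loxl2 and Mrc2 were each lower in each KO/KO sample than in any WT/WT sample and passed in each of the 14 alternative fits. Itgb1, the beta chain of the collagen-binding integrins, averaged 142 CPM in KO/KO and 154 CPM in WT/WT and did not pass, nor did the receptor kinase gene Ddr1 (log2 fold change 0.20, edgeR adjusted p = 0.264).

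Of 15 genes of collagen degradation tested, 3 rose and 1 fell (26.7%, against 14.8% of all genes tested). The 3 that rose encode matrix metalloproteinases. Mmp9, a gelatinase, had 25.8, 31.3 and 34.1 CPM in KO/KO and 13.9, 13.9 and 11.5 CPM in WT/WT, without overlap (log2 fold change 1.21, SE 0.14, edgeR adjusted p = 0.000825). The membrane-type proteinase genes Mmp14 and Mmp16 had log2 fold changes of 0.53 (edgeR adjusted p = 0.0209) and 1.06 (edgeR adjusted p = 0.0226). Reck, a membrane inhibitor of such proteinases, fell, at 19.7, 23.0 and 18.7 CPM in KO/KO and 28.1, 27.5 and 26.0 CPM in WT/WT (log2 fold change -0.41, edgeR adjusted p = 0.0414). Mmp9 passed in all 14 alternative fits. Mmp14 did not pass without WT/WT replicate 2 or 3 (adjusted p = 0.111 and 0.0950), Mmp16 without any 1 WT/WT sample (0.0547 to 0.0888), and Reck without any 1 sample other than KO/KO replicate 2 (0.0959 to 0.152). Their log2 fold changes in these fits were 0.48 and 0.45 for Mmp14, 0.92 to 1.20 for Mmp16 and -0.45 to -0.33 for Reck. The secreted collagenase genes Mmp8 and Mmp1a had 0 counts in every sample, an outcome that 3 counts in a sample would still allow. Ctsl, a lysosomal protease gene that Sertoli cells also express, had 133, 136 and 193 CPM in KO/KO and 120, 122 and 99.9 CPM in WT/WT, which separate the genotypes without passing (edgeR adjusted p = 0.0762).

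Of 28 tested matrix proteins that work with collagens, 2 rose and 5 fell (25%, against 14.8% of all genes tested), with a median log2 fold change of -0.11. The nidogen genes, whose proteins tie laminin to collagen IV, differed in direction. Nid1 had 134, 259 and 221 CPM in KO/KO and 77.5, 78.6 and 61.9 CPM in WT/WT (log2 fold change 1.49, SE 0.21, edgeR adjusted p = 0.00183). Nid2 had 107, 100.4 and 91.5 CPM in KO/KO and 122, 131 and 146 CPM in WT/WT (log2 fold change -0.41, SE 0.09, edgeR adjusted p = 0.0177). Hspg2, which encodes the basement membrane proteoglycan perlecan, fell too, at 118, 113 and 91.5 CPM in KO/KO and 173, 162 and 161 CPM in WT/WT (log2 fold change -0.62, SE 0.10, edgeR adjusted p = 0.00400). Fbn2, Fbln1 and Fbln5, genes of microfibrils and elastic fibres, fell with log2 fold changes of -0.45, -0.56 and -1.93, and Postn, which encodes a collagen-binding matricellular protein, rose, at 2.59, 3.34 and 1.77 CPM in KO/KO and 1.23, 0.789 and 0.981 CPM in WT/WT (log2 fold change 1.36, edgeR adjusted p = 0.0200). Nid2 did not pass without KO/KO replicate 3 or without WT/WT replicate 2 or 3 (adjusted p = 0.0543, 0.0705 and 0.0830), Postn without WT/WT replicate 2 or 3 (0.0951 and 0.0734) and Fbln5 without WT/WT replicate 2 (0.0519). Their log2 fold changes in these fits were -0.43 to -0.34 for Nid2, 1.20 and 1.34 for Postn and -1.83 for Fbln5. The fibronectin gene Fn1 had between 379 and 432 CPM in KO/KO and between 381 and 419 CPM in WT/WT, and did not pass.

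**Figure D5:**
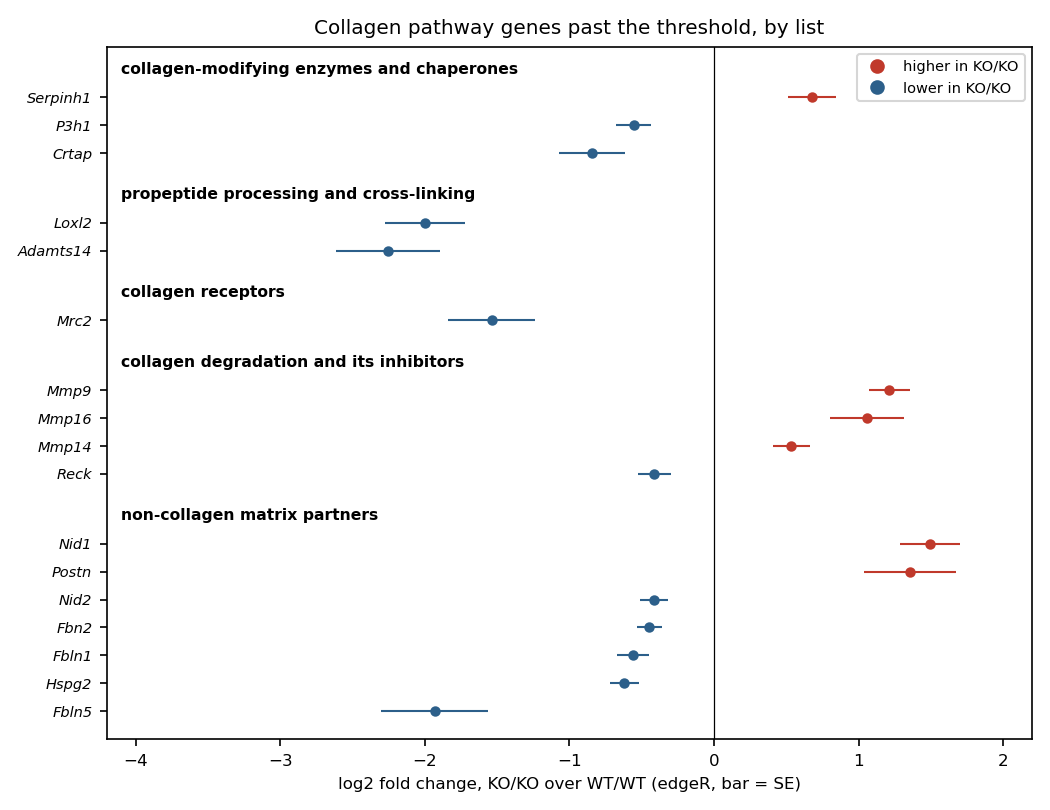
Log2 fold change (KO/KO over WT/WT, x axis) with its standard error (bar) of the 17 genes that passed the threshold in the lists of genes that modify, process, bind, degrade or accompany collagen. Red points are higher and blue points lower in KO/KO; they run from -2.25 (Adamts14) to 1.49 (Nid1).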

How the data were processed

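Counts of reads per gene and per transposable element family were deposited as raw counts, 1 file per sample. Per the submitters' processing notes the authors used STAR 2.7.0a, featureCounts 1.5.1 and the mm10 build. RNA was DNase-treated and libraries were made with a stranded total RNA kit, per the labels' protocols. The sources used here name neither the annotation release nor the strand and multi-mapping settings of the counting.

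Transposable element rows, between 14.1% and 15.5% of all counts, were left out. The 54087 gene rows were fitted with the edgeR 4.0.16 quasi-likelihood test (R 4.3.3) with TMM factors and filterByExpr, on genotype alone. Benjamini-Hochberg adjustment ran over 21314 genes, with a threshold of 0.05. The standard error is the size of the log2 fold change over the square root of F. On simulated counts, unadjusted p-values of unchanged genes kept to their nominal rate. After adjustment the share of false calls was somewhat above the threshold with gene-wise dispersions and not with trended ones, so calls near the threshold are less firm. No 2 samples agreed within sampling noise (chi-square per degree of freedom of at least 12.4). This value was 12.4 to 14.8 between WT/WT samples and 36.3 to 49.2 between KO/KO samples. KO/KO replicate 1 had 36.3 and 37.1 with the other KO/KO samples and 34.5 to 35.4 with the WT/WT samples. Limits given for a count of 0 are 3 counts and cover counting error only.

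Other settings tried were RLE factors, upper quartile factors, no filter, a filter at 1 CPM in 3 samples, DESeq2 1.42.0, limma-voom (limma 3.58.1), replicate number as a block, library totals with element rows, and leaving out each sample. The members, classes, pathway and marker lists were chosen with earlier results of these data known. Named were called genes, the most abundant genes of each class or list, and collagens with separated genotypes. Others were picked with their values in view. GENCODE M21 (GRCm38, which is mm10) gave positions, exon lengths and overlaps, and all 44 collagens matched. At most 6.07% of a collagen's exon bases lie under exons of a gene on the other strand. Upstream sequences are RefSeq's. Figures were drawn with matplotlib 3.10.9.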

Additional observations from a re-analysis of the deposited data

How the results depend on the processing

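The number of collagens that rose lay between 7 and 9 and the number that fell between 2 and 5 when 1 sample was left out. Counts of this size move with single genes. By class, leaving out 1 sample gave 4 rises and 1 to 2 falls among fibrillar genes, 0 to 1 rises in collagen IV, 1 to 2 rises in collagen VI, 1 to 2 falls among transmembrane genes and 0 to 1 falls among the other collagens. For the pathway lists it gave 0 to 2 rises and 0 to 2 falls of modifying enzymes, 1 to 5 rises and 0 to 1 falls of degradation genes, and 1 to 2 rises and 3 to 6 falls of matrix partners. With no filter on low counts there were 2 fibrillar and 2 transmembrane falls, 1 short-chain network fall (Col8a1), 1 multiplexin rise, 1 rise and 1 fall among the other collagens, and 2 rises of modifying enzymes. DESeq2 gave 2 fibrillar falls, 1 rise among the other collagens and 2 rises of modifying enzymes. Upper quartile factors gave 0 falls among degradation genes.

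The correlations of deviations between same-numbered samples of the 2 genotypes were -0.126, 0.0499 and 0.0579. Between differently numbered samples they ran from -0.245 to 0.224. Same-numbered samples were thus not more alike than others, but 3 samples per genotype are too few to exclude pairing. With the replicate number as a block, 7 collagens rose and 3 fell, with 0 rises in collagen IV, 1 rise in collagen VI, 1 fall among the other collagens and 0 falls among degradation genes, and 2574 genes were called, against 3144 without the block.

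Signs turned only for genes that passed in no fit, on leaving out single samples. Over the 6 such fits the log2 fold change ran from -0.40 to 0.22 for Col1a2, -0.44 to 0.0089 for Col3a1, -0.25 to 0.32 for Col4a3, -0.15 to 0.40 for Col4a4, -0.036 to 0.38 for Col4a5, -0.0086 to 0.35 for Col6a2, -0.38 to 0.14 for Col6a4, -0.055 to 0.57 for Col6a6, -0.25 to 0.30 for Col12a1 and -0.31 to 0.29 for Col15a1. The causes of these shifts were not tested. Col9a1, Col10a1, Col19a1 and Col8a1 had too few counts to be tested with the filter.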
